A study of Mus musculus with 2 samples.

Results

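The AMPA and NMDA receptor subunit genes are the 9 members described here, *Gria1*, *Gria2*, *Gria3* and *Gria4* for the AMPA receptor and *Grin1*, *Grin2a*, *Grin2b*, *Grin2c* and *Grin2d* for the NMDA receptor. They were chosen by name, without use of any measured value, and they were all found among the 25556 genes of the count table. RNA was counted in single nuclei of the brainstem from 1 wild-type (WT) mouse and 1 heterozygous (HET) mouse. The HET mouse carried the *Scn1a* A1783V missense allele on 1 chromosome, a model of Dravet Syndrome, and was bred from a male with the floxed *Scn1a* allele and a female with *Sox2*-Cre, whose promoter drives recombination throughout the embryo. Both mice were female littermates on a C57Bl6 background, aged 41 days, and whether the WT littermate carried the Cre is not given in the sources used here. Because each genotype is 1 animal and 1 library, there are no replicates: no test between genotypes could be made, and genotype cannot be told apart from animal, dissection and library. All intervals below are 95% intervals for counting error only.

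Glutamate is the main fast excitatory transmitter of the brainstem. AMPA receptors are tetramers of the products of *Gria1* to *Gria4* that open within milliseconds, and receptors that hold the edited product of *Gria2* pass little calcium. NMDA receptors combine the obligatory subunit encoded by *Grin1* with subunits encoded by *Grin2a* to *Grin2d*, need glutamate, a co-agonist and depolarization to open, and pass calcium. The choice of *Grin2* subunit sets how long the channel stays open and how strongly magnesium blocks it.

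The stretch of coding sequence that lines the pore shows how the families differ at the position that governs calcium. Each line gives 51 coding bases, 5′ to 3′, from the GENCODE vM21 transcripts, and the capitals mark the codon of the Q/R site in the AMPA subunits and of the corresponding N site in the NMDA subunits.
*Gria1*: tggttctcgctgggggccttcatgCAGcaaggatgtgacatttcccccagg
*Gria2*: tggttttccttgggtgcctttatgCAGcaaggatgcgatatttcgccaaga
*Gria3*: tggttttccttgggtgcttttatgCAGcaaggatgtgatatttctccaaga
*Gria4*: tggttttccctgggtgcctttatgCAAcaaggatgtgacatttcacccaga
*Grin1*: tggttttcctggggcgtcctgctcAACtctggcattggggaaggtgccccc
*Grin2a*: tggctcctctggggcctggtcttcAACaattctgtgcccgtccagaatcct
*Grin2c*: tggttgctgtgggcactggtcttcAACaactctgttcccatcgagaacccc
*Grin2d*: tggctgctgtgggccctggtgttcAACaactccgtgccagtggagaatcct
All 4 AMPA genes encode glutamine at the marked codon, as CAG in *Gria1*, *Gria2* and *Gria3* and as CAA in *Gria4*, and the 4 NMDA genes shown encode asparagine with AAC. Over the 51 bases, *Gria3* shared 48 with *Gria2*, *Gria4* 45 and *Gria1* 41, while *Grin2d* and *Grin2c* shared 42 and 40 with *Grin2a* and *Grin1* shared 23. In the RNA of *Gria2* this glutamine codon is edited to read as arginine, which gives the receptor its low calcium permeability. The deposited 3′ counts do not read that codon, so editing was not measured here.

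In the mm10 build with the GENCODE vM21 annotation, the AMPA genes lie at chr11:57011387-57330244 on the plus strand (*Gria1*), chr3:80681450-80802835 on the minus strand (*Gria2*), chrX:41400854-41678601 on the plus strand (*Gria3*) and chr9:4417896-4796234 on the minus strand (*Gria4*). The NMDA genes are all on the minus strand, at chr2:25291181-25319187 (*Grin1*), chr16:9567898-9995560 (*Grin2a*), chr6:135713233-136173511 (*Grin2b*), chr11:115249169-115267243 (*Grin2c*) and chr7:45831883-45878378 (*Grin2d*). The marked *Gria2* codon lies at chr3:80706911-80706913 in exon 11 of 16 and the marked *Grin1* codon at chr2:25297386-25297388 in exon 14 of 21. The genes span from 18.1 kb for *Grin2c* and 28.0 kb for *Grin1* to 428 kb for *Grin2a* and 460 kb for *Grin2b*, and the 4 AMPA genes span 121 kb (*Gria2*) to 378 kb (*Gria4*). On the opposite strand, *Grin1os* overlaps *Grin1*, with 8.44 CPM (UMIs of a gene scaled to a library total of 1e+06) in the WT library and 14.9 in the HET library, and *Kdelr1* overlaps *Grin2d*, with 23.7 and 18.1 CPM. Whether the counting used strand is not given in the sources used here, and the *Grin2d* level is low enough for this to matter.

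The WT library held 9259 nuclei and 70301390 unique molecular identifiers (UMIs, 1 per captured RNA molecule), with a median of 5456 per nucleus, and the HET library held 9022 nuclei and 66176778 UMIs, with a median of 5646. The deposited clustering has 16 clusters, 9 of them neuronal, and 34 numbered subclusters. Neuronal clusters held 66.1% of the WT nuclei and 59.8% of the HET nuclei, and 23 cell barcodes occurred in both libraries. A cluster was compared between libraries where it held at least 30 nuclei in each, which left 12 clusters, 6 neuronal and 6 non-neuronal. Some non-neuronal clusters go against their names: the deposited reference labels call 211 of 405 nuclei of the microglial cluster (micro), 87 of 344 of the endothelial cluster (endo), 111 of 266 of the fibroblast cluster (fibro) and 71 of 174 of the ependymal cluster epend.1 neurons, so results in these are given as cluster values only. The libraries also differed in content, with 3 granule cell markers at a summed 3.23 CPM in the WT library against 22.4 in the HET library and 3 choroid plexus markers at 401 and 44.7 CPM. *Scn1a* itself stood at 380 and 420 CPM, which does not check the labels, since the allele is a missense change that 3′ counts do not see. No member was left out by the minimum of UMIs over all nuclei.

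The 9 genes together gave 305116 UMIs in the WT library, 0.434% of its total, and 274514 in the HET library, 0.415%. The 4 AMPA genes gave 218369 and 194949 of these. Neuronal clusters supplied 95.1% of the subunit UMIs in the WT library and 92.6% in the HET library. Levels of different genes are ordered here per length, as CPM per 100 kb of gene span, and UMI shares and ratios further on are not corrected for length. On that scale, in neuronal clusters, *Grin1* stood highest at 1315 in the WT library against 1166 in the HET library, and *Gria2* followed at 1078 and 917. *Gria4* (338 and 373) and *Gria3* (221 and 189) came next, then *Grin2a* (120 and 126), *Grin2b* (106 and 107), *Gria1* (88.0 and 98.9), *Grin2d* (83.0 and 92.0) and *Grin2c* (41.2 and 60.4). The order of the 9 genes was the same in both libraries.

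Each AMPA gene had its own distribution over cell clusters. *Gria1*, which in forebrain carries much of activity-dependent receptor traffic, had its highest level outside neurons, in the astrocyte cluster (astro), at 667 CPM in the WT library against 832 in the HET library. In the neuronal clusters compared, *Gria1* ranged from 40.5 CPM in neuron.4 to 309 in neuron.2 in the WT library and from 33.9 to 377 CPM in the HET library, where neuron.1 stood highest. Of the 11 pairs of neighbours in its order of clusters, 9 in WT and 7 in HET had overlapping intervals. *Gria2* peaked in neuron.2 with 2510 and 2173 CPM, followed by neuron.5 with 2162 and 1605 CPM, and was lower in neuron.4 with 799 and 674 CPM. Only 3 of 11 neighbouring pairs overlapped for *Gria2* in the WT library and 4 in the HET library.

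*Gria3* was highest in neuron.3 with 839 and 861 CPM and in neuron.1 with 634 and 533 CPM. It stood at only 89.0 and 67.3 CPM in neuron.5 and at 21.7 and 72.1 CPM in neuron.7, where these levels rest on 11 and 28 UMIs. *Gria4* had its peak in neuron.7, at 2762 and 2788 CPM, and lay between 854 and 1481 CPM in the other neuronal clusters compared. Cluster neuron.7, with 46 WT and 33 HET nuclei, is serotonergic-like by its markers: *Tph2*, the enzyme that begins serotonin synthesis in neurons, stood at 847 and 1889 CPM and the serotonin transporter *Slc6a4* at 753 and 652 CPM. These nuclei thus had the highest *Gria4* level and the lowest *Gria3* level of the neuronal clusters compared in the WT library.

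*Grin1* was highest in neuron.5, at 598 and 454 CPM, ranged from 162 to 380 CPM in the other neuronal clusters compared, and stood at 38.0 to 45.9 CPM in astro and oligo, the oligodendrocyte cluster. *Grin2a* and *Grin2b* both peaked in neuron.2, *Grin2a* at 917 and 1213 CPM and *Grin2b* at 629 and 626 CPM. *Grin2a* was lower in the other neuronal clusters compared, between 273 and 542 CPM. It also reached 1131 CPM in the 120 WT nuclei of neuron.6, a cluster with 5 HET nuclei that was not compared.

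*Grin2c* and *Grin2d* had the lowest levels per 100 kb in neuronal clusters. *Grin2c*, known in the adult from cerebellar granule cells and astrocytes, stood at 82.7 and 87.7 CPM in neuron.5 and at 70.0 and 104 CPM in astro, against 1.67 to 15.8 CPM in neuron.1 to neuron.4. In neuron.7 it had no UMI in the WT library, which allows up to 5.91 CPM, and 2.58 CPM in the HET library. Cluster neuron.5 is granule-cell-like by its markers, with the receptor subunit *Gabra6* at 356 and 379 CPM and the adhesion gene *Fat2* at 140 and 188 CPM. *Grin2d*, which gives slowly closing channels, lay between 27.2 and 49.2 CPM in neuron.1 to neuron.4 and neuron.7. In neuron.5 it had no UMI in the WT library, which allows up to 19.1 CPM, and 21.1 CPM in the HET library. Its order over clusters was not resolved, since 11 and 10 of 11 neighbouring pairs overlapped.

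For 7 of the 9 genes the same cluster was highest in both libraries. *Grin2c* was highest in neuron.5 in the WT and in astro in the HET library, and *Grin2d* in neuron.7 in the WT and neuron.1 in the HET library. Across the 12 clusters, the levels of a gene in the 2 libraries had Pearson correlations of 0.867 to 0.977 for 8 genes and of 0.565 for *Grin2d*. These points share their cluster definitions, which were built from the same counts.

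**Figure D1:**
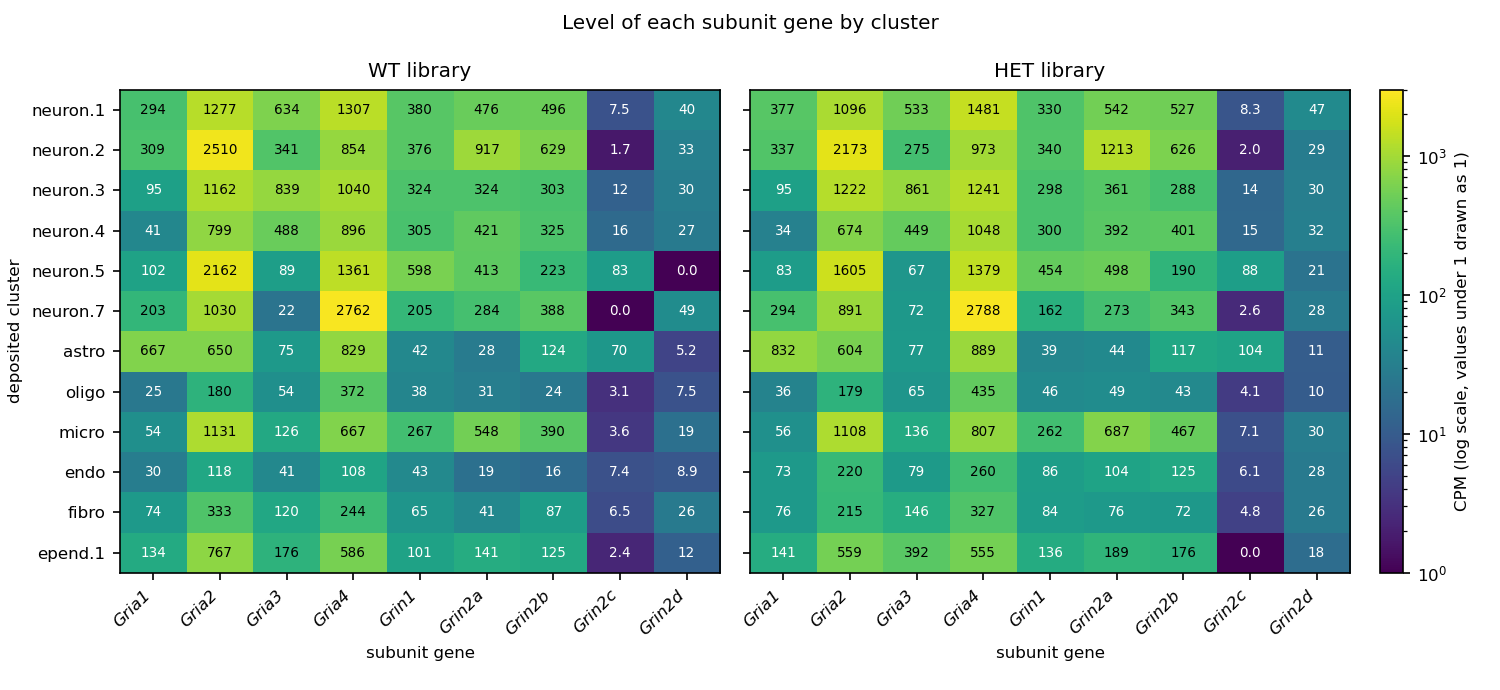
Levels of the 9 subunit genes by deposited cluster, in CPM on a log color scale, with the WT and the HET library side by side. *Gria1* is highest in astro, *Gria2*, *Grin2a* and *Grin2b* in neuron.2, *Gria3* in neuron.3, *Gria4* in neuron.7 and *Grin1* in neuron.5, in both libraries.

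Free RNA in the suspension gives some neuronal transcripts in every droplet, so levels in glia were read beside those of 4 neuronal genes. Each nucleus was thinned to 1000 UMIs, and only nuclei whose cluster and reference label name the same cell type were used. After thinning, *Gria1* had a UMI in 40.9% of astrocyte nuclei and in 24.3% of nuclei in neuronal clusters, *Gria4* in 48.0% and 66.9%, and *Gria2* in 41.5% and 68.0%. The neuronal genes *Snap25* and *Rbfox3* had a UMI in 11.9% and 2.33% of the same astrocyte nuclei, against 43.5% and 21.3% in neuronal clusters. The transporter genes *Slc17a6* and *Slc32a1*, which mark glutamatergic and inhibitory neurons, had a UMI in 4.40% and 2.93%, against 7.93% and 4.11%. Without thinning, at median depths of 3155.5 and 8055 UMIs, *Gria1* had a UMI in 64.9% of astrocyte and 67.4% of neuronal nuclei. The astrocyte levels of *Gria1*, *Gria2*, *Gria4* and *Grin2c* (8.55% of nuclei) stood at 259%, 51.1%, 64.6% and 979% of their CPM in neuronal clusters. The neuronal genes stood at 9.46% (*Rbfox3*), 19.4% (*Snap25*), 52.4% (*Slc17a6*) and 75.6% (*Slc32a1*), so *Gria1* and *Grin2c* were above all 4, and *Gria2* and *Gria4* lay within their range. *Grin1*, at 10.5% of its neuronal CPM, and *Grin2a*, at 6.09%, were within or below that range.

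In oligodendrocyte nuclei, *Gria4* had a UMI in 29.7% of thinned nuclei and 56.8% of nuclei without thinning, at a median depth of 2807 UMIs, with 407 CPM, 30.3% of the neuronal level, whereas endothelial nuclei had 77.3 CPM with a UMI in 8.82% and microglial nuclei 173 CPM with a UMI in 11.2%. In the same oligodendrocyte nuclei *Rbfox3*, *Snap25*, *Slc17a6* and *Slc32a1* stood at 10.8%, 21.0%, 52.5% and 79.5% of their neuronal CPM, a range that includes *Gria4*. By share of thinned nuclei, *Gria2* in oligodendrocyte nuclei, at 15.2%, was close to *Snap25* at 13.2%, and *Gria1* at 3.20% was close to *Rbfox3* at 2.64%. The ratio of *Gria4* to *Gria2* UMIs was 0.978 in neuronal clusters of the WT library and 1.27 in those of the HET library, 2.09 (1.94 to 2.26) and 2.46 (2.31 to 2.62) in oligodendrocyte nuclei and 1.30 and 1.48 in astrocyte nuclei. It was 0.80 (0.51 to 1.24) and 0.71 (0.28 to 1.73) in endothelial nuclei and 0.42 (0.16 to 1.01) and 0.89 (0.53 to 1.48) in microglial nuclei. The part of free RNA in the glial levels was not tested.

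The astrocyte cluster itself was not uniform. Subcluster 19, with 76 WT and 66 HET nuclei and *Gfap*, the intermediate filament of reactive and fibrous astrocytes, at 1513 and 1384 CPM, had *Gria1* at 1242 and 2351 CPM. Subcluster 4, with *Gfap* at 64.2 and 46.7 CPM, had *Gria1* at 652 and 732 CPM. *Gria2* was lower in subcluster 19, at 240 and 141 CPM, than in subcluster 4, at 765 and 677 CPM, while *Grin2c* stood at 87.9 and 118 CPM in subcluster 4. In subcluster 19 *Grin2c* had 1 UMI in the WT library and none in the HET library, which allows up to 12.8 CPM. *Gria4* in subcluster 19 stood at 204 CPM in the WT library against 822 in the HET library (log2 ratio 2.01, 1.56 to 2.48), from 52 and 193 UMIs. The share of these nuclei with a *Gria4* UMI was 35.5% and 40.9%, and 15.9% (8.55 to 26.1) and 21.7% (12.5 to 33.6) after thinning, so the difference in CPM was not matched by the share of nuclei. A further small group, subcluster 32 of epend.1 with 47 WT and 3 HET nuclei, is oligodendrocyte-precursor-like by *Pdgfra* (816 CPM), *Cspg4* (364 CPM) and *Vcan* (1102 CPM) in the WT library. It held *Gria2* at 1603, *Gria4* at 1652 and *Gria3* at 482 CPM. The reference labels call 47 of the 50 nuclei of this subcluster neurons, which its precursor markers go against.

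The mix of AMPA subunit UMIs differed by cluster, and a share is compared below for the same gene across clusters and libraries, not between genes. *Gria2* made up 37.6% of AMPA subunit UMIs in neuronal clusters of the WT library (37.4 to 37.8) and 33.1% in the HET library (32.9 to 33.3). By cluster, its share was 62.5% and 57.8% in neuron.2, 58.2% and 51.2% in neuron.5, 37.0% and 35.7% in neuron.3, 36.4% and 31.4% in neuron.1, and 35.9% and 30.6% in neuron.4. The lowest neuronal share among compared clusters was in the serotonergic-like neuron.7, at 25.6% and 22.0%, where *Gria4* made up 68.8% and 68.9%. The *Gria4* share was lowest among compared neuronal clusters in neuron.2, at 21.3% and 25.9%. In the WT nuclei of neuron.6 *Gria2* made up 17.2%. Subcluster 33 of neuron.5, with 6 WT and 37 HET nuclei, lay at the other end, at 99.1% and 91.9%.

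Single nuclei also spread widely. Among neuronal nuclei with at least 10 AMPA UMIs, 5444 WT and 4990 HET, the median *Gria2* share was 37.8% in the WT library against 32.6% in the HET library. The middle 80% of nuclei lay between 20.4% and 63.3% in the WT library and between 17.6% and 56.3% in the HET library, a spread that includes the counting error of few UMIs. Neuronal nuclei with no *Gria2* UMI were rare, 8 of 5444 (0.147%) and 7 of 4990 (0.140%). Astrocyte nuclei without one numbered 16 of 175 (9.14%) in the WT and 19 of 232 (8.19%) in the HET library. These shares stand at unequal depth, with a median of 14 AMPA UMIs in the astrocyte nuclei against 29 in the neuronal nuclei, and were not compared.

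**Figure D2:**
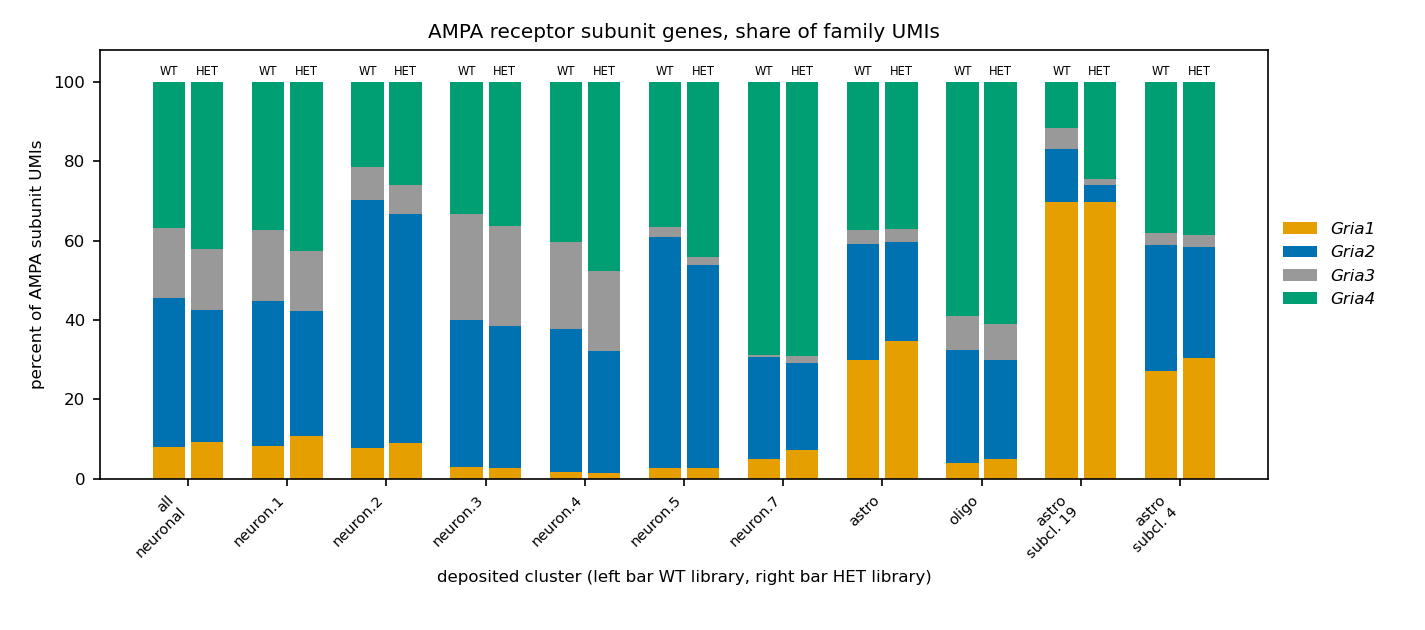
Share of AMPA subunit UMIs from each *Gria* gene, in percent, by cluster and library. *Gria2* takes 62.5% and 57.8% in neuron.2 and 25.6% and 22.0% in neuron.7, where *Gria4* takes 68.8% and 68.9%.

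Among the *Grin2* genes, *Grin2a* and *Grin2b*, which have similar spans, gave most of the UMIs in neurons. *Grin2a* made up 49.1% and 49.6% of *Grin2* UMIs in neuronal clusters and *Grin2b* 46.5% and 45.4%. The *Grin2a* share was larger in neuron.2, at 58.0% in the WT library against 64.9% in the HET library. Its 2 subclusters differed, with 45.02% and 51.0% in subcluster 12 and 69.9% and 75.5% in subcluster 14, and the HET share was the larger in both. In the WT nuclei of neuron.6 the *Grin2a* share was 71.2%. The *Grin2b* share was larger in neuron.7, at 53.8% and 53.0%, than over all neuronal clusters. *Grin2c* made up 11.5% and 11.0% in the granule-cell-like neuron.5 and 30.8% and 37.6% in astro, where *Grin2b* made up 54.6% and 42.5%.

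**Figure D3:**
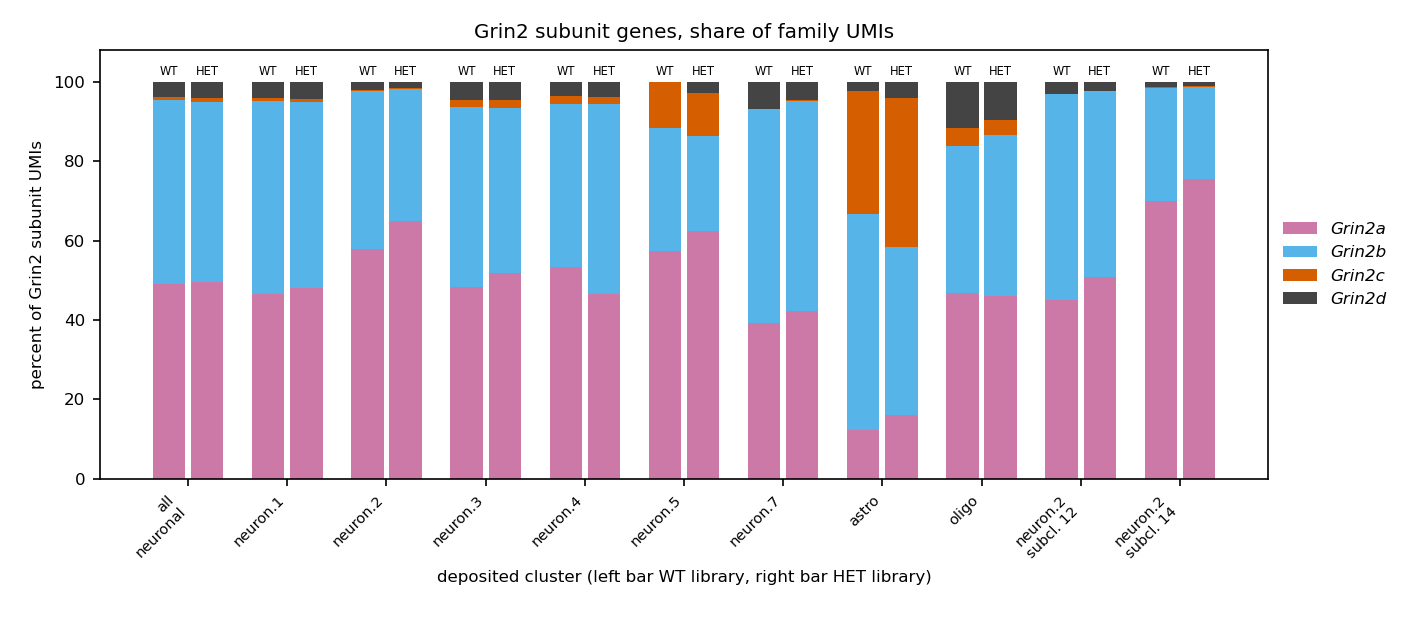
Share of *Grin2* UMIs from each of the 4 *Grin2* genes, in percent, by cluster and library. *Grin2a* and *Grin2b* hold most UMIs in neuronal clusters, and *Grin2c* is a visible part of neuron.5 (11.5% and 11.0%) and astro (30.8% and 37.6%).

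Between genotypes, the differences over all nuclei were small and went in opposite directions within each family. *Gria2* was lower in the HET library, at 969 against 1164 CPM (log2 ratio of HET to WT -0.26, -0.28 to -0.25), and so were *Gria3*, at 438 against 529 CPM (-0.27, -0.30 to -0.25), and *Grin1*, at 277 against 321 CPM (-0.21, -0.24 to -0.18). *Gria1* was higher in the HET library, at 293 against 261 CPM (0.17, 0.14 to 0.20), as was *Gria4*, at 1246 against 1152 CPM (0.11, 0.10 to 0.13). *Grin2a* stood at 447 and 457 CPM (0.03) and *Grin2b* at 424 and 418 CPM (-0.02, -0.04 to 0.00), the only member here whose sign turned with the scaling, to 0.08 after centring on the median gene. *Grin2d* stood at 34.0 and 37.1 CPM (0.12), and *Grin2c* at 8.82 and 13.6 CPM (0.62, 0.47 to 0.77), from 620 and 898 UMIs. In sums over nuclei of a library, fewer nuclei of a type and less RNA per nucleus cannot be told apart.

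A gene was called where its CPM was at least 25% higher or 20% lower in the HET library, among genes with at least 200 UMIs. Over all nuclei, 1 of 9 members was called higher (*Grin2c*) against 12.9% of 16347 genes, and 0 of 9 were called lower against 28.8%. The median log2 ratio was 0.03 over the members and -0.10 over all these genes, so a member at 0 stood above the general level. In the neuronal clusters, 1 of 9 was called higher, *Grin2c* again, against 12.1% of 15352 genes, and 0 of 9 lower against 27.3%. There the ratios were -0.23 for *Gria2* (1308 and 1113 CPM) and *Gria3* (614 and 524 CPM), -0.17 for *Grin1* (368 and 327 CPM), 0.17 for *Gria1* (281 and 315 CPM) and 0.14 for *Gria4* (1279 and 1412 CPM). With 1 library each, the members' counts are a description of these libraries.

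Gene length moved with the ratio across the table. In neuronal clusters the median log2 ratio was 0.12 over 2455 genes of at least 100 kb and -0.15 over 12672 shorter genes, and over genes binned by span it went from -0.48 in the shortest bin to 0.13 in the longest. Set against long genes, *Gria2* and *Gria3* were low, with only 7.70% and 7.82% of that class at lower ratios, while *Gria4* (56.6%), *Gria1* (61.4%), *Grin2a* (39.8%) and *Grin2b* (31.7%) lay in its middle. Set against short genes, *Grin1* lay in the middle, with 47.2% of that class lower, and *Grin2d* (80.3%) and *Grin2c* (93.5%) lay high. The part of gene length in these ratios was not tested.

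**Figure D4:**
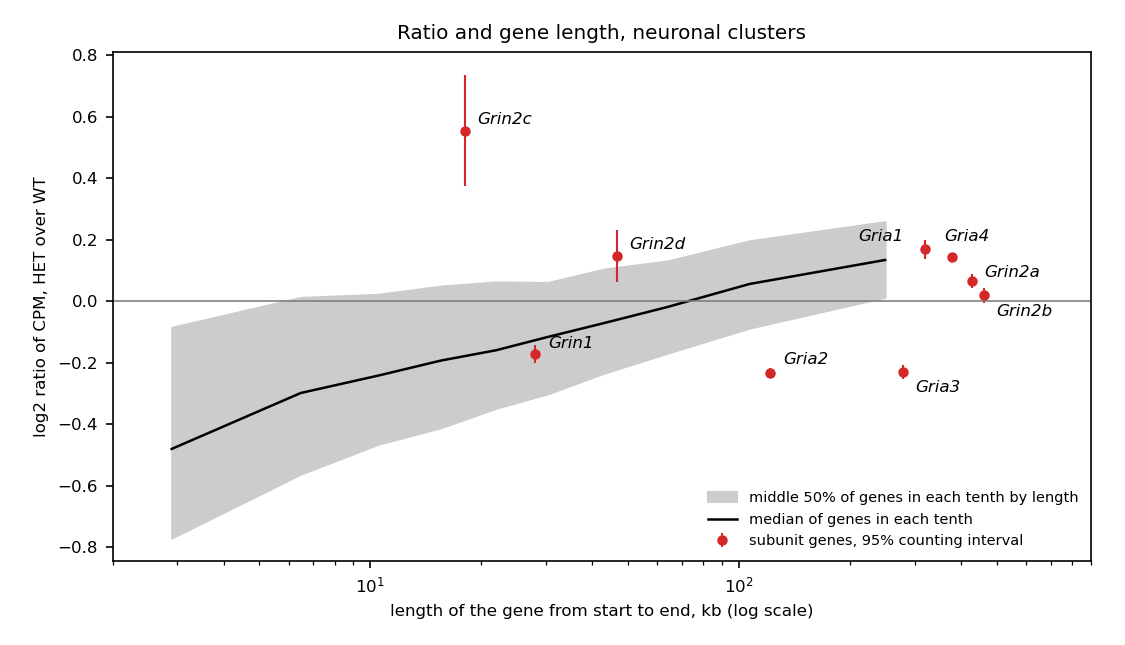
Log2 ratio of HET to WT CPM in neuronal clusters against gene span in kb on a log axis, with the medians of genes binned by length and the 9 members marked. *Gria2* and *Gria3* lie low among genes of at least 100 kb, with 7.70% and 7.82% of them at lower ratios, whereas *Grin1* lies near the middle of its class.

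The difference in *Grin2c* over all nuclei moved with the mix of clusters. Neuron.5, its richest neuronal cluster, held 42 WT and 332 HET nuclei and supplied 2.10% of *Grin2c* UMIs in the WT library against 12.5% in the HET library, and astro supplied 23.9% and 30.1%. Without neuron.5, the log2 ratio of *Grin2c* was 0.48 over all nuclei and 0.32 over neuronal clusters. Each subcluster with at least 30 nuclei per library was also given the same weight in both libraries. That weight was the mean of its WT and HET UMI shares. It gave *Grin2c* a log2 ratio of 0.26 over all nuclei and 0.11 over neuronal clusters. Under the same weighting *Gria2* stood at -0.21, *Grin1* at -0.16 and *Gria3* at -0.13 over all nuclei, and *Grin2a* at 0.22.

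Within neuron.1, the largest cluster with 5032 WT and 4079 HET nuclei, *Gria1* was the member that differed most, at 294 and 377 CPM (0.36, 0.33 to 0.39). It was the 1 of 9 members called higher, against 10.8% of 14638 genes, and 0 of 9 were called lower, against 27.4%. *Gria2* stood at 1277 and 1096 CPM (-0.22), *Gria3* at 634 and 533 CPM (-0.25), *Grin1* at 380 and 330 CPM (-0.20), *Gria4* at 1307 and 1481 CPM (0.18), *Grin2a* at 476 and 542 CPM (0.19) and *Grin2b* at 496 and 527 CPM (0.09). Among genes of at least 100 kb in this cluster, 89.1% had lower ratios than *Gria1*, and 5.65% and 4.86% lower ratios than *Gria2* and *Gria3*. The *Gria1* value moved with the mix of subclusters. With the same subcluster weights in both libraries it was 0.23, and without subcluster 1 it was 0.29, both short of a call.

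The 7 subclusters of neuron.1 that could be compared allow these directions to be followed in separate sets of nuclei of the same 2 animals. *Gria2* was lower in the HET library in all 7, with log2 ratios of -0.45 to -0.13, beyond counting error in 6. *Grin1* was lower in all 7, with ratios of -0.27 to -0.10, also beyond counting error in 6. *Grin2a* (0.00 to 0.31) and *Grin2d* (0.09 to 0.66) were higher in all 7, beyond counting error in 6 and 2. The minimum here was 200 UMIs in neuron.1 and 20 UMIs in every subcluster, both libraries summed, which 8 members passed. Of these, 2 were thus higher in every subcluster, against 13.5% of 8357 genes, and 2 lower in every one, against 25.9%. *Gria1* was higher in 6 of 7, the exception being subcluster 1 at 204 and 187 CPM (-0.12), which held 1714 WT but 511 HET nuclei. *Gria4* was higher in 6 of 7 and *Gria3* lower in 6 of 7. Over all 13 neuronal subclusters compared, *Gria2* was lower in 12, *Grin1* in 13 and *Gria3* in 11, beyond counting error in 11, 6 and 8. *Gria4* was higher in 12, *Grin2a* in 11 and *Gria1* in 10, beyond counting error in 9, 9 and 7. The share of all genes was not taken over these 13 subclusters, which come from the same 2 animals.

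**Figure D5:**
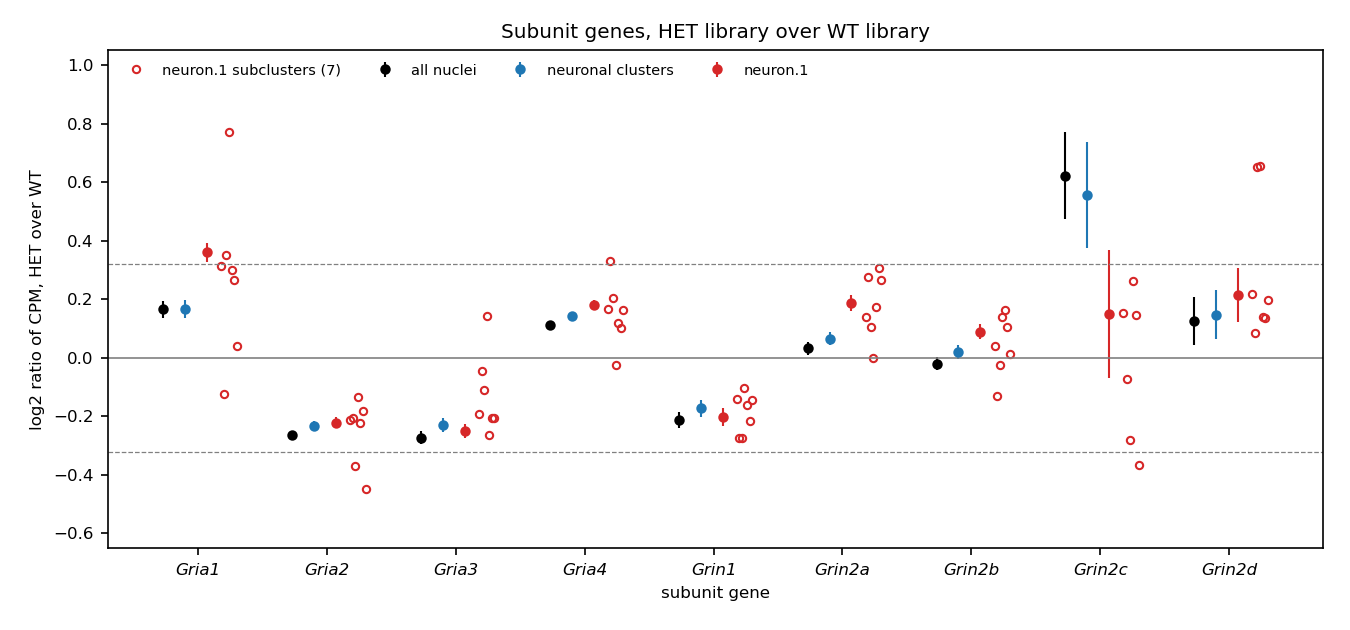
Log2 ratio of HET to WT CPM for each member over all nuclei, in neuronal clusters, in neuron.1 (filled points with 95% intervals for counting error) and in each of its 7 subclusters (open points), with dashed lines at the limits for a call. *Gria2* and *Grin1* lie below 0 and *Grin2a* at or above 0 in all 7 neuron.1 subclusters.

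The other neuronal clusters held fewer nuclei. In neuron.2, *Grin2a* stood at 917 and 1213 CPM (0.40, 0.33 to 0.48), the 1 of 7 members called higher against 11.0% of genes, and 0 of 7 were called lower against 20.8%. *Gria2* in neuron.2 stood at 2510 and 2173 CPM (-0.21) and *Gria3* at 341 and 275 CPM (-0.31), just short of a call. In neuron.3, 0 of 7 members were called higher against 16.1% of genes and 0 of 7 lower against 18.6%. This was the neuronal cluster where *Gria2* was not lower in the HET library, at 1162 and 1222 CPM (0.07). In neuron.4, 0 of 8 members were called higher against 14.8% and 0 of 8 lower against 18.2%, with *Grin2b* at 325 and 401 CPM (0.30).

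In neuron.5, where the WT library had 42 nuclei, *Gria2* stood at 2162 and 1605 CPM (-0.43, -0.60 to -0.26) and *Grin1* at 598 and 454 CPM (-0.40, -0.71 to -0.07). These were the 2 of 5 members called lower, against 16.5% of genes, and 0 of 5 were called higher, against 26.7%. In neuron.7, the *Gria4* level that marks the cluster stood at 2762 and 2788 CPM (0.01), and *Gria1* at 203 and 294 CPM (0.53, 0.14 to 0.93).

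In glia the HET library was higher for several members. In astro, *Gria1* stood at 667 and 832 CPM (0.32, 0.22 to 0.42), just under the limit for a call, *Gria2* at 650 and 604 CPM (-0.10), *Gria4* at 829 and 889 CPM (0.10) and *Grin2c* at 70.0 and 104 CPM (0.57, 0.27 to 0.87). *Grin2c* was the 1 of 6 members called higher, against 14.3% of genes, and 0 of 6 were called lower, against 23.4%. Within astro, *Gria1* differed by 0.92 (0.72 to 1.12) in subcluster 19 and by 0.17 in subcluster 4, and *Gria2* by -0.77 (-1.43 to -0.14) and -0.18.

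In oligo, *Gria4* stood at 372 and 435 CPM (0.22) and *Gria2* at 180 and 179 CPM (-0.01). *Gria1* at 24.8 and 36.0 CPM (0.54), *Grin2a* at 30.8 and 49.2 CPM (0.68) and *Grin2b* at 24.3 and 43.4 CPM (0.84) were the 3 of 7 members called higher, against 13.1% of genes, and 0 of 7 were called lower, against 27.0%. In oligodendrocyte nuclei of both libraries these 3 stood at 10.3%, 7.71% and 7.06% of their neuronal CPM, below *Rbfox3* at 10.8%. *Rbfox3* in the oligodendrocyte nuclei went from 15.2 CPM in the WT to 37.3 in the HET library and *Snap25* from 120 to 144 CPM. The part of free RNA in the differences of the 3 genes was not tested.

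The *Gria2* share of AMPA UMIs was lower in the HET library in each cluster for which it was given above, by 4.47 percentage points over neuronal clusters (4.05 to 4.90). The smallest of these differences was in neuron.3, at 37.0% against 35.7%. In astro the share was 29.3% and 25.2% and in oligo 28.5% and 25.0%.

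The split by transmitter was limited by sparse marker counts. Glutamatergic nuclei had at least 5 UMIs of vesicular glutamate transporters, and at least 5 times as many as of inhibitory markers. They numbered 134 in the WT library against 225 in the HET library, and the reverse rule gave 1107 and 785 inhibitory nuclei. The rule kept deep nuclei, with medians of 17564 and 15332 UMIs in glutamatergic and 12196 and 11610 in inhibitory nuclei. Over all neuronal nuclei the medians were 7729 and 8390 UMIs. Outside the neuronal clusters lay 5 and 9 glutamatergic and 5 and 2 inhibitory nuclei. *Gria1* was lower in the glutamatergic nuclei, at 158 and 140 CPM, than in the inhibitory nuclei, at 286 and 343 CPM (log2 ratio of glutamatergic to inhibitory -0.85 and -1.30). The 2 sets differ in clusters: neuron.4, with *Gria1* at 40.5 and 33.9 CPM, gave 31 and 56 glutamatergic but 0 and 1 inhibitory nuclei. The part of clusters and of depth in the *Gria1* difference was not tested. Between libraries, *Gria1* differed by 0.26 (0.20 to 0.33) in the inhibitory nuclei and by -0.18 (-0.36 to 0.00) in the glutamatergic nuclei. *Gria2* differed by -0.26 in inhibitory and -0.11 in glutamatergic nuclei, *Gria3* by -0.21 and 0.01, *Gria4* by 0.11 and -0.04, and *Grin1* by -0.29 and -0.22. Whether these differences differ between the nuclei types was not tested.

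The proteins that carry, anchor and modify these receptors form a list of 50 further genes, written by hand. Of its 49 genes with at least 200 UMIs, 29 were higher and 20 lower in the HET library over all nuclei. By the call, 9 (18.4%) were higher and 6 (12.2%) lower, against 12.9% and 28.8% of all genes, and the median log2 ratio was 0.03 against -0.10. The 21 list genes of at least 100 kb had a median of 0.28 and the 28 shorter ones a median of -0.07. Among the highest ratios were those of *Shisa9*, an AMPA receptor auxiliary subunit, at 111 and 177 CPM (0.68), and of *Gsg1l*, another AMPA receptor auxiliary subunit, at 32.2 and 43.6 CPM (0.44). The lowest were those of *Cpt1c*, a neuronal protein of the endoplasmic reticulum that binds AMPA receptors, at 125 and 66.2 CPM (-0.92), of *Grin3b*, an NMDA subunit that binds glycine, at 5.69 and 3.49 CPM (-0.70), and of *Cnih2*, an AMPA receptor auxiliary subunit, at 6.49 and 4.50 CPM (-0.53). *Adarb1*, which encodes the enzyme that edits the *Gria2* codon and was named after its values were seen, stood at 115 and 143 CPM (0.31).

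For each member, the genes with the most similar levels were sought across the 34 subclusters, by the Pearson correlation of log2(CPM + 1) over both libraries pooled and among 8975 genes. *Grin1* was followed most closely, by *Sptbn4* (0.98), *Unc80* (0.98) and *Myt1l* (0.97). Among the genes nearest to *Grin2a* were *Glra1* (0.94), a glycine receptor subunit, and *Rbfox1* (0.90), and *Grin2b* was nearest to *Epha5* (0.93), *Ptprn2* (0.92) and *Cit* (0.92). *Grin2d* was nearest to *Pkd1* (0.91), *Dip2c* (0.90) and *Cdc7* (0.90). *Grin2c* had no close match, the nearest being *Dpf3* (0.66), *Trmt9b* (0.66) and *Specc1* (0.63).

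Among the AMPA genes, *Gria1* was nearest to *Dclk1* (0.87), *Gabrb1* (0.83) and *Mras* (0.79), and *Gria2* to *Unc79* (0.91), *Syn2* (0.90) and *1700024B18Rik* (0.90). *Gria3* was nearest to *Sv2c* (0.90), *Tcerg1l* (0.87) and *Slc35f1* (0.84), and *Gria4* to *Gm29514* (0.88), *4930445B16Rik* (0.87) and *Lrrc4c* (0.84). Among the members, *Grin2a* correlated with *Grin2b* at 0.87 and with *Grin1* at 0.85, while *Grin2c* correlated with the other members between -0.17 and 0.11. The subclusters share libraries and were built from these counts, so the correlations describe them only.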

How the data were processed

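Nuclei of 1 WT and 1 HET brainstem were captured with 10x Chromium 3′ chemistry. The authors counted UMIs with Cell Ranger (version not given in the sources used here, mm10 reference) and filtered nuclei in Seurat 4.1, and the deposited counts are whole UMIs per gene and nucleus without normalization. The deposited percent values (mitochondrial, ribosomal and hemoglobin UMIs per nucleus) were not used in comparisons. The doublet score was deposited without the name of its caller, and every deposited nucleus is listed as a singlet. Clusters, subclusters and reference labels were taken as deposited.

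UMIs were summed per library and group of nuclei and scaled to CPM (per 1e+06 UMIs), with exact Poisson intervals for levels, Clopper-Pearson intervals for shares and an exact interval for the ratio of 2 counts. The ratio and the thinning were tested on simulated data. Depth was 70301390 and 66176778 UMIs. Gene spans and sequences came from GENCODE vM21, with 1 position for 24908 genes. Thinned shares are expected values at 1000 UMIs per nucleus.

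All 9 members are named. Of the 50 list genes, the 3 highest and 3 lowest ratios are named, and per member the 3 genes with the most similar levels among those with at least 2000 UMIs in subclusters of at least 30 nuclei, except for a few items that are not reported here. The members, lists and rules were chosen with earlier results of these data known. Alternatives were common cluster or subcluster weights, median-centring, totals without ribosomal protein genes, nuclei with at least 2000 UMIs and no nuclei in the highest 5% of doublet scores. Further alternatives were means over nuclei, thinned shares, clusters left out, other minimums and a larger fold. A common weight was the mean of a group's WT and HET UMI shares, over groups with at least 30 nuclei in each library. Both alternatives within neuron.1 were added after seeing the data. Python 3.11.15 with numpy 2.4.6, pandas 2.3.3, scipy 1.17.1 and matplotlib 3.10.9 was used.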

Additional observations from a re-analysis of the deposited data

Results flagged for a closer look

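*Gria2* and *Grin1* passed the call limit in opposite directions in different clusters, with intervals off 0, and the difference between clusters was not tested. *Gria3* also went both ways beyond counting error, higher in 4 and lower in 3 of 12 clusters, but its lower values fell short of the limit. Its log2 ratio was -0.25 (-0.28 to -0.22) in neuron.1 and -0.31 in neuron.2. It was 1.15 in epend.1 and 1.74 (0.68 to 2.89) in neuron.7, there from 11 and 28 UMIs. *Gria2* was higher in the HET library in endo, at 118 and 220 CPM (log2 ratio 0.89), and lower in epend.1, at 767 and 559 CPM (-0.46), in fibro, at 333 and 215 CPM (-0.63), and in neuron.5, at 2162 and 1605 CPM (-0.43). Subcluster 32 of epend.1, with 47 WT and 3 HET nuclei, supplied 163 of 326 *Gria2* UMIs of this cluster in the WT library. In the HET library it supplied 16 of 127, and the part of this mix in the epend.1 value was not tested. *Grin1* was higher in endo, at 42.9 and 85.6 CPM (1.00), and lower in neuron.5, at 598 and 454 CPM (-0.40). Other members were also higher in endo, among them *Gria1* (1.31), *Gria4* (1.27), *Grin2a* (2.43) and *Grin2b* (2.95). *Grin2c* stood at -0.28 there, from 5 and 2 UMIs. In endo subcluster 29, with 45 WT and 41 HET nuclei, the reference labels call 56 of 86 nuclei neurons. The share of all genes called in endo was not taken. In endo, epend.1 and fibro the reference labels call 87 of 344, 71 of 174 and 111 of 266 nuclei neurons, and the part of those nuclei in these values was not tested. Of the 71 in epend.1, 47 are in subcluster 32, which is oligodendrocyte-precursor-like by its markers.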

How the results depend on the processing

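No paired analysis was possible because each genotype is 1 library, and no replicate could be left out for the same reason. The number of members called over all nuclei was 1. It was 0 with common subcluster weights and 2 with the mean over nuclei of CPM, which adds *Gria3* at -0.33. With common cluster weights it was 1, but the member called was *Gria1* at 0.33, and *Grin2c* at 0.26 was not called. In neuronal clusters the number was 1, and 0 with common subcluster weights or without neuron.5, where *Grin2c* fell just short. With common cluster weights the 1 member called there was *Gria1* at 0.34, with *Grin2c* at 0.13. Over the 9 members and 12 clusters compared, 24 ratios passed the call with an interval off 0, and 14 at a limit of 50% higher. The share of all genes by this rule was not taken. Many of the 24 were in endo, epend.1, fibro and micro, where the reference labels call many nuclei neurons. The median of the receptor-associated list, 0.03, was 0.14 after median-centring and 0.13 with common cluster weights. The *Gria2* share difference kept its direction, and 7 genes kept the same highest cluster in both libraries under each alternative run. Of 225 values of a member under an alternative, 220 kept their direction, and the 5 that changed it were all of *Grin2b*. Over all nuclei *Gria2* ranged from -0.30 to -0.16, *Gria3* from -0.33 to -0.13, *Grin1* from -0.23 to -0.11, *Gria1* from 0.05 to 0.33 and *Gria4* from 0.09 to 0.22. The causes of these moves were not tested. Depth limits *Grin2c* and *Grin2d* in most clusters.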
